A study of Mus musculus with 10 samples.

Results

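The endoplasmic reticulum (ER) chaperone and unfolded protein response (UPR) genes were a list of 32 genes, followed here in mouse kidney. A gene was represented by the probe set, a group of probes for one transcript, that had the highest mean signal among those annotated with exactly 1 symbol equal to the gene. All 32 genes had such a probe set, out of 18193 named genes in the deposited table. All 32 also passed the filter on low signal, which kept 12196 genes. Kidneys of male C57BL/6 mice aged 30 months were measured on Affymetrix mouse whole-genome arrays, with 1 mouse on each of 10 arrays. Of these mice, 5 had been fed a control diet and 5 had been calorie restricted for the long term. All mice shared strain, sex and age, and the labels name no genetic change. How severe the restriction was, how long it lasted, what the controls ate and at what hour kidneys were taken are not stated in the labels, so the comparison is of old male mice of one strain at one time point. The design asks how the expression of these genes in the old kidney differs after lasting restriction.

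Proteins bound for secretion, membranes and lysosomes enter the ER through a channel, are glycosylated, and fold with the help of HSP70-type and lectin chaperones and of disulfide and proline isomerases. When misfolded protein accumulates, the sensors IRE1 (Ern1), PERK (Eif2ak3) and ATF6 start the UPR, which raises chaperones and the machinery that returns misfolded proteins to the cytosol for degradation. In kidney, tubule cells make large amounts of membrane transporters and endocytic receptors, and ER stress there is known from proteinuria and other injury.

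The promoters of this list are known for the ER stress response element (ERSE), which ATF6 and XBP1 bind together with NF-Y. Its letters, CCAAT, 9 bases of any kind and CCACG, were searched on both strands from 250 bases before to 50 bases after each RefSeq gene start (GRCm38.p6). Of the 26 genes with a promoter in that table, 9 held the ERSE, or 34.6%, against 39 of all 32851 promoters of this length, or 0.119%. The 10 matches are shown because they are the sequence that these 9 genes share whatever their signal did. Each is written 5′ to 3′ on the strand that reads CCAAT first, with 8 flanking bases in lower case and the 2 fixed parts of the element in capitals.
Hspa5, chr2:34772017-34772051, plus strand: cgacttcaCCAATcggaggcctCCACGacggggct
Hsp90b1, chr10:86705630-86705664, minus strand: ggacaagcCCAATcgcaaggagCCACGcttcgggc
Hsp90b1, chr10:86705525-86705559, plus strand: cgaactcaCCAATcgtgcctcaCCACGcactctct
Dnajc3, chr14:118937819-118937853, plus strand: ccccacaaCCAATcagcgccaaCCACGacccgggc
Pdia6, chr12:17266483-17266517, plus strand: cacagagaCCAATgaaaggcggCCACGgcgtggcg
Calr, chr8:84847067-84847101, plus strand: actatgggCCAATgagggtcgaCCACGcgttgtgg
Canx, chr11:50325792-50325826, minus strand: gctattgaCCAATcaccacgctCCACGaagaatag
Syvn1, chr19:6046524-6046558, plus strand: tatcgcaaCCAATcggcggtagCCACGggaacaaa
Derl3, chr10:75893234-75893268, minus strand: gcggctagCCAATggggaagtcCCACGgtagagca
Creld2, chr15:88819512-88819546, minus strand: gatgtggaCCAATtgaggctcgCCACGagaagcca

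Hsp90b1 held 2 matches, 1 on each strand, and the match of Syvn1 lay closest to the start, between 44 and 26 bases upstream. The related ERSE-II, here ATTGG, 1 base of any kind and CCACG, was found in Dnajb11 and Herpud1, and in 12 of all 32851 promoters (0.0365%). The capitals mark its fixed parts.
Dnajb11, chr16:22857844-22857870, plus strand: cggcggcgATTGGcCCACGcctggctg
Herpud1, chr8:94386369-94386395, plus strand: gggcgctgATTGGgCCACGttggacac

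The CCACG part alone, which the ERSE and ERSE-II matches also contain, was present in 21 of 26 promoters (80.8%) against 32.8% of all promoters. The core of a further UPR element (UPRE) was also searched, only as an exact string, and matched 0 of the 26 promoters, against 0.676% of all promoters. With a share that low among all promoters, 0 of 26 cannot show a difference from them. A match describes letters and is neither a binding site nor a cause. Hyou1, Manf, Derl1, Sec61a1, Atf6 and Ostc have no entry in the promoter table. The promoters of Calr and Dnajb9 are printed because these genes gave the smallest p-values of the list. Both run for 200 bases that end at the base before the gene start, and capitals mark the same fixed parts of the ERSE or their reverse complements.
Calr, chr8:84846932-84847131, minus strand: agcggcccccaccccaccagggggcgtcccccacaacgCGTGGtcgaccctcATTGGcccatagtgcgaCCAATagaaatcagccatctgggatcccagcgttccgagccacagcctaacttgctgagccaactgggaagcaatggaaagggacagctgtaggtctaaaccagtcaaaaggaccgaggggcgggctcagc
Dnajb9, chr12:44210069-44210268, minus strand: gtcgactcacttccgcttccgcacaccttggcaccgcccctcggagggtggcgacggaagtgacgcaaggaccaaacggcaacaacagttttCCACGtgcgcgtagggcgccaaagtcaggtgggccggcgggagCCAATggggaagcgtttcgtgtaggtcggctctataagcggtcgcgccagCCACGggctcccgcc

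The Calr stretch holds 2 CCAAT and 1 CCACG over both strands, and one pair of them forms the ERSE listed above. The Dnajb9 stretch holds 1 CCAAT and 2 CCACG, and no pair of them has the ERSE spacing. Differences between the diets lay on both sides of 0 with and without the element. Of the 9 genes with an ERSE, 4 had a difference above 0, with a median log2 difference of -0.074 and a range from -0.35 to 0.44. Of the 17 whose promoter lacked it, 8 lay above 0, with a median of -0.0042 and a range from -0.54 to 0.40.

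Signals are MAS5 intensities on a linear scale, and differences are of log2 signal, calorie restricted minus control. Each has its standard error (SE) from limma, n = 5 per group, and a p adjusted by Benjamini-Hochberg over all 22519 tested probe sets, with 0.05 as the threshold. The number of arrays limits the precision. Arrays correlated at a Spearman's rho between 0.922 and 0.951 across probe sets. The log2 ratio of 3′ to 5′ probe sets of Gapdh and Actb, a measure of RNA integrity and labelling, was 0.91, 0.76, 0.94, 1.39 and 1.25 in control replicates 1 to 5. It was 2.21, 2.01, 1.75, 1.24 and 1.16 in calorie-restricted replicates 1 to 5, so that restricted replicates 1, 2 and 3 stood above all controls while 4 and 5 lay within the control range. The means differed by 0.62 (2-sided exact permutation p = 0.0476, where the smallest possible p is 0.00794). This p was between 0.0714 and 0.0794 without any 1 of replicates 1, 2 and 3 of either diet. The genes described most fully are therefore also given for replicates 4 and 5 of each diet alone, or for restricted replicates 4 and 5 against all 5 controls.

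The differences of the list lay on both sides of 0. Calr and Ppib rose, Dnajb9 and Ostc fell, and the other 28 genes did not pass the threshold in limma's test. These 4 calls make 12.5% of the list, beside 6.10% of all 12196 genes tested. The 2 higher calls stood against 3.08% of all genes called higher, and the 2 lower calls against 3.02% called lower. Differences lay above 0 in 15 genes, and their median was -0.0094, beside a median of -0.0052 over all genes tested. Log2 differences ran from -0.61 (Ostc) to 0.58 (Sec61a1), and 20 of the 32 lay within 0.25 of 0. At an unadjusted p under 0.05 the list had 10 genes, or 31.2%, beside 26.4% of all genes. In 3 genes, Dnajb9, Calr and Ppib, the 5 restricted values did not overlap with the 5 control values, which is 9.38% of the list and 7.49% of all genes tested. Leaving out 1 mouse moved the calls from 4 to 0 without control replicate 2 or 4 or restricted replicate 1, 2 or 3. They became 1 or 2 without another control, 6 without restricted replicate 4 and 7 without restricted replicate 5. Over all 22519 probe sets, calls went from 1371 to between 125 and 410 in the fits with 0 member calls. They went to between 513 and 1339 without another control, 2104 without restricted replicate 4 and 2481 without restricted replicate 5. Member calls numbered 1 after quantile normalization and 0 with no filter or with eBayes without trend. In the fits without a filter and without trend, 10 and 9 members had an unadjusted p under 0.05. Over all probe sets, quantile normalization gave 764 calls, no filter 287 of 45037, and eBayes without trend 243. In whole kidney, fewer cells of a type and less RNA per cell cannot be told apart.

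**Figure D1:**
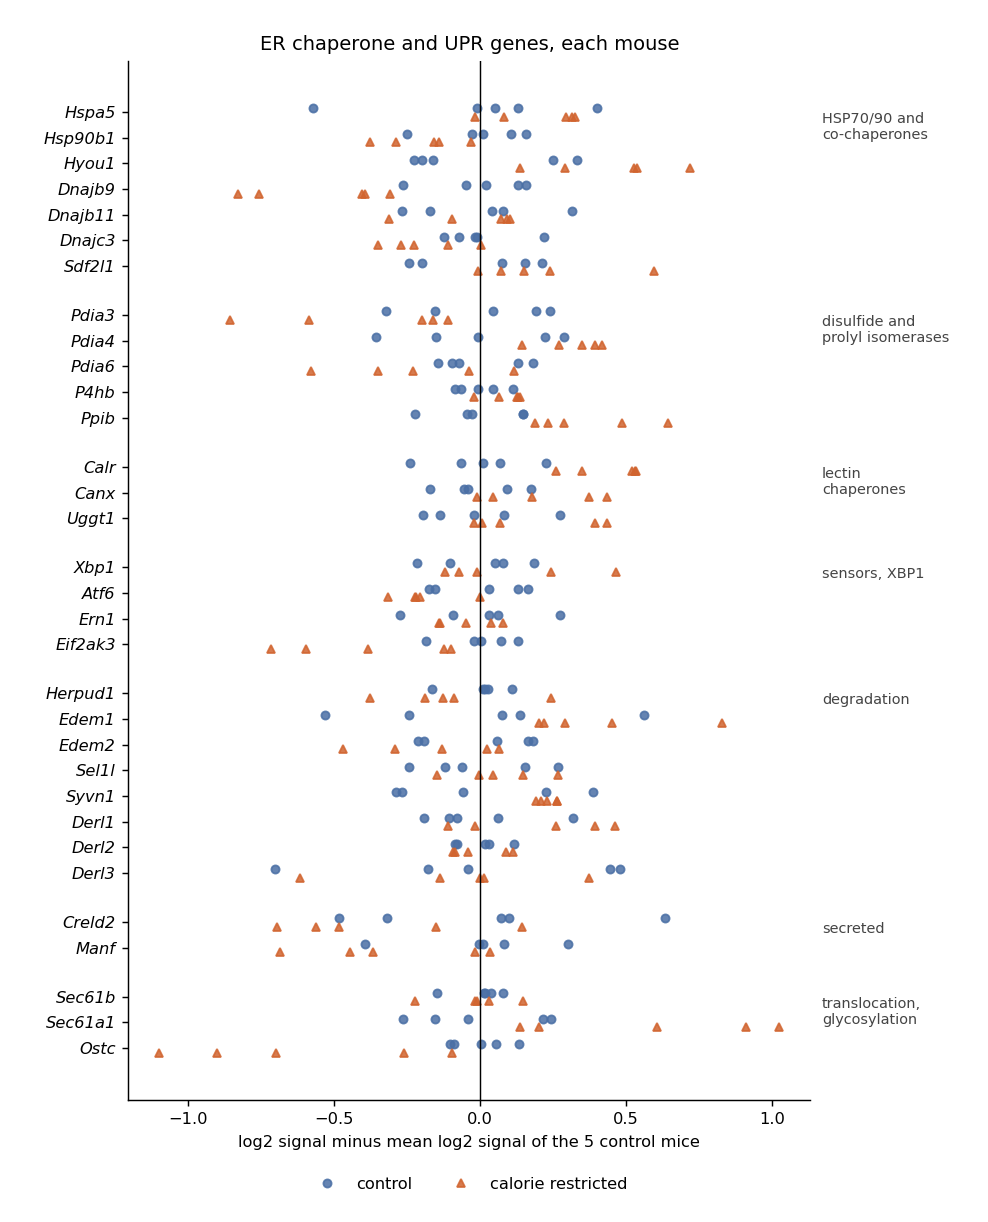
Log2 signal of each of the 32 genes in each mouse, as the difference from the mean of the 5 controls (circles, control; triangles, calorie restricted), with genes ordered by role. Triangles lie right of every circle for Ppib and Calr and left of every circle for Dnajb9, and the groups overlap for the other genes.

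The HSP70 and HSP90 chaperones and their co-chaperones had 1 call among 7 genes, the fall of Dnajb9. Dnajb9 encodes ERdj4, a J-domain protein that hands clients to BiP and holds IRE1 inactive, and is a known target of XBP1. Its signal was 4241, 4048, 3486, 4658 and 4578 in control replicates 1 to 5. It was 2357, 2473, 3183, 3379 and 3163 in the restricted mice, and the highest of these lay below the lowest control. The log2 difference was -0.54 ± 0.12 (SE, n = 5, limma adjusted p = 0.0268). Restricted replicates 1 and 2 were the lowest and also had the highest 3′ to 5′ ratios. In replicates 4 and 5 alone the difference was -0.50 (limma adjusted p = 0.0895, 2 against 2). It was -0.35 for restricted replicates 4 and 5 against all controls. Without any 1 of control replicates 2, 4 and 5 or restricted replicates 1, 2 and 3 the call was lost, at differences from -0.57 to -0.46 and adjusted p from 0.0505 to 0.0718.

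Hspa5, the gene of BiP, which is the main HSP70 of the ER and the usual marker of the UPR, did not pass the threshold. Its signals were 7812, 4804, 7089, 7408 and 9419.6 in controls and 7054, 8887, 8949.7, 8756 and 7559.5 in restricted mice. The restricted values lay inside the control range, which control replicates 2 and 5 set at its ends. Its log2 difference was 0.20 ± 0.15 (limma adjusted p = 0.408).

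Hyou1, which encodes GRP170, an exchange factor and chaperone beside BiP, had a log2 difference of 0.44 ± 0.14 (limma adjusted p = 0.0727). Its signals were 1647, 1689.8, 1616, 2377 and 2246 in controls and 2744, 2720.3, 3112, 2312 and 2075 in restricted mice. Restricted replicates 1, 2 and 3 exceeded every control, and replicates 4 and 5 lay below control replicate 4. In replicates 4 and 5 alone the difference was -0.077, which reverses the sign, and without restricted replicate 5 it was 0.52 and passed (limma adjusted p = 0.0354).

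Hsp90b1, the gene of GRP94, the HSP90 of the ER, had a mean signal of 4997 ± 528 in controls and 4349 ± 404 in restricted mice (SD, n = 5). Its difference was -0.20 ± 0.098 (limma adjusted p = 0.218). Dnajc3, whose product P58IPK is a J-domain co-chaperone, stood at -0.19 (limma adjusted p = 0.239). Sdf2l1, a partner of J-domain proteins, had a difference of 0.21 (limma adjusted p = 0.389), and Dnajb11, which encodes ERdj3, of -0.027 (limma adjusted p = 0.917).

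Among the 5 disulfide and proline isomerases Ppib rose and the 4 protein disulfide isomerases did not pass. Ppib encodes cyclophilin B, a proline isomerase that acts on collagen and other secreted proteins. Its brightest probe set gave 8943, 10257, 11554, 11574 and 10121 in controls and 16316, 14622, 12744, 12276 and 11905 in restricted mice. All restricted values lay above all controls, with restricted replicate 5 next to control replicate 4, and restricted replicates 1 and 2 were highest. Its log2 difference was 0.37 ± 0.10 (limma adjusted p = 0.0499), just past the threshold. A second Ppib probe set gave 0.071 (limma adjusted p = 0.602), and in replicates 4 and 5 alone the brightest gave 0.16. Without any 1 control or any 1 of restricted replicates 1, 2 and 3, the call was lost, at 0.30 to 0.41 and adjusted p from 0.0647 to 0.119.

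Pdia3 encodes ERp57, the disulfide isomerase that works with the lectin chaperones. Its signals were 4553, 5032, 5213, 3959.5 and 3529 in controls and 2939, 2437, 3843, 4093 and 3947 in restricted mice. Restricted replicates 1 and 2 lay below all controls, and the other three fell inside the control range. Its log2 difference was -0.38 ± 0.15 (limma adjusted p = 0.134), and 0.10 in replicates 4 and 5 alone. Pdia4, which encodes ERp72, had a difference of 0.32 (limma adjusted p = 0.160) and kept 0.36 in replicates 4 and 5 alone. Pdia6 stood at -0.22 (limma adjusted p = 0.303). P4hb, the classical disulfide isomerase, had a mean signal of 12435 ± 706 in controls and 13205 ± 599 in restricted mice, with a difference of 0.087 (limma adjusted p = 0.454) that became -0.081 after quantile normalization.

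Calr rose on each of its 3 probe sets. It encodes calreticulin, the soluble lectin chaperone that binds calcium and holds glycoproteins with a single glucose. Its signals were 10714, 8643, 10273, 9755 and 11949 in controls and 14741, 14643, 14780.2, 12227 and 12995 in restricted mice. All 5 restricted values exceeded all controls, with restricted replicate 4 next to control replicate 5. The log2 difference was 0.44 ± 0.094 (limma adjusted p = 0.0233). The other Calr probe sets, both with the x_at suffix of probes that can bind related transcripts, gave 0.46 (limma adjusted p = 0.0269) and 0.39 (limma adjusted p = 0.0337). In replicates 4 and 5 alone the brightest gave 0.22 (limma adjusted p = 0.419). Leaving out control replicate 2 or 4 or restricted replicate 1, 2 or 3 ended the call, at 0.38 to 0.42 and adjusted p from 0.0538 to 0.0627.

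Canx, the membrane-bound lectin chaperone calnexin, had a difference of 0.20 (limma adjusted p = 0.222). Uggt1, the glucosyltransferase that sends unfolded glycoproteins back to these lectins, had 0.18 (limma adjusted p = 0.420). All 3 genes of the lectin cycle thus lay above 0, as they did after median centring and quantile normalization, and 1 of them passed the threshold. Uggt1 stood at -0.13 in replicates 4 and 5 alone, -0.00071 with the ratio as a covariate and -0.0054 when restricted replicates 4 and 5 were set against all controls. Canx stood at -0.092 with the mean of its probe sets.

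**Figure D2:**
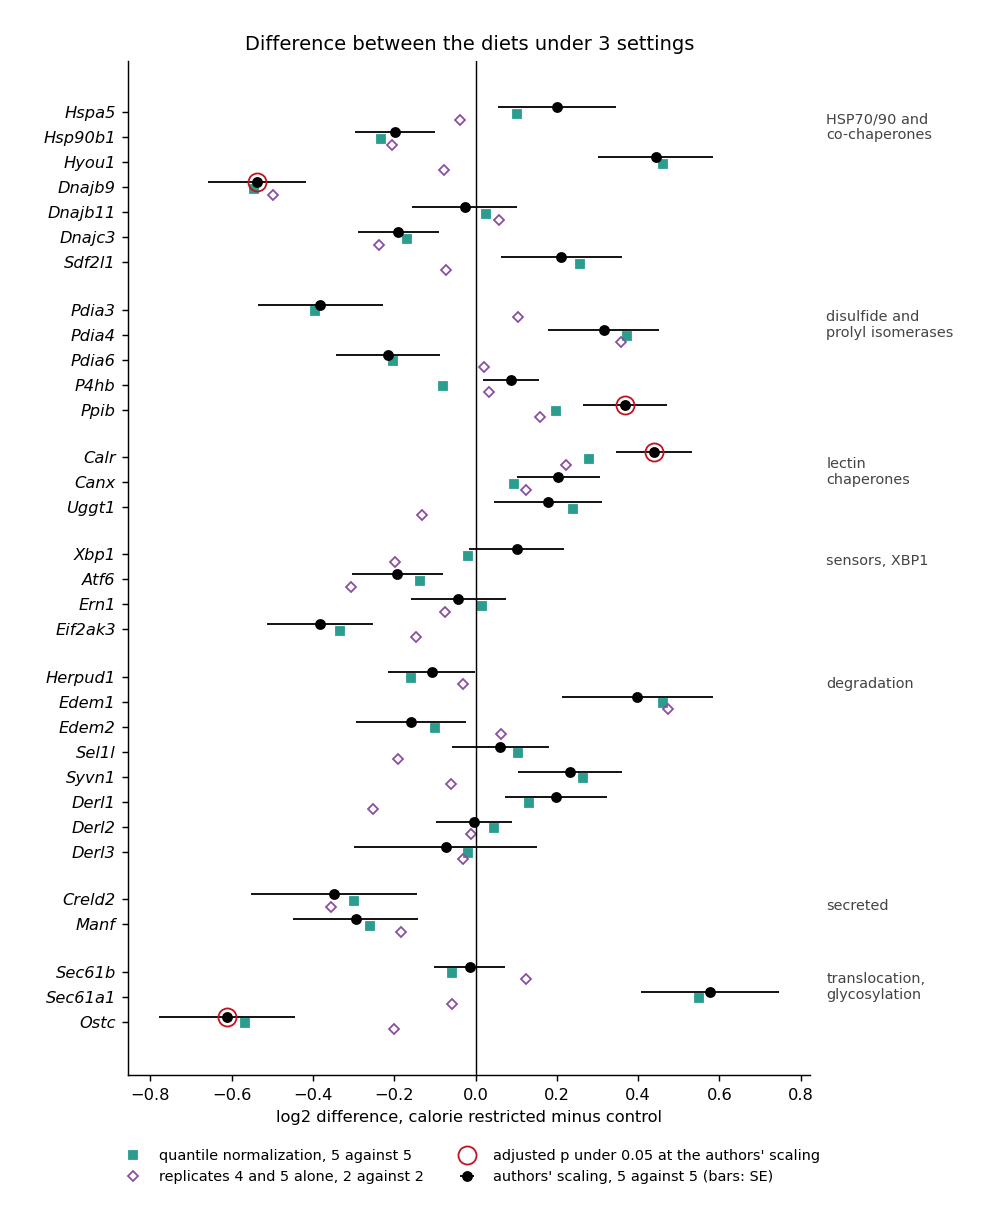
Log2 difference, calorie restricted minus control, of the 32 genes at the authors' scaling with its SE (black), after quantile normalization (squares) and in replicates 4 and 5 of each diet alone (open diamonds). Red rings mark adjusted p under 0.05, and the diamonds lie near 0 for Sec61a1 (-0.058) and Hyou1 (-0.077) but at -0.50 for Dnajb9.

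None of the 3 sensors nor the transcription factor Xbp1 passed the threshold, and 1 of these 4 genes had an unadjusted p under 0.05. This was Eif2ak3, the gene of PERK, the kinase that slows translation by phosphorylating eIF2α. Its signals were 1234, 1382, 1534, 1472 and 1405 in controls and 927, 855, 1074, 1308 and 1288 in restricted mice. Restricted replicates 1, 2 and 3 lay below every control and replicates 4 and 5 inside the control range. The log2 difference was -0.38 ± 0.13 (limma adjusted p = 0.0882), and -0.15 in replicates 4 and 5 alone. It passed without restricted replicate 4 (-0.45, limma adjusted p = 0.0473) and without restricted replicate 5 (-0.45, limma adjusted p = 0.0472).

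Atf6, whose product is cut in the Golgi to release a transcription factor, had a difference of -0.19 (limma adjusted p = 0.296). Ern1, the gene of IRE1, which splices the Xbp1 message, had -0.042 (limma adjusted p = 0.851). The brightest of 4 tested Xbp1 probe sets gave 0.10 ± 0.12 (limma adjusted p = 0.620). The other three gave -0.50 (limma adjusted p = 0.0549), -0.081 (limma adjusted p = 0.695) and 0.43 (limma adjusted p = 0.0534), so the direction for Xbp1 depended on the probe set. Splicing of Xbp1 was not analysed here.

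None of the 8 genes for degradation of misfolded proteins passed, and 1 of them, Edem1, had an unadjusted p under 0.05 in limma. Edem1 and Edem2 act on mannose-trimmed glycoproteins that are to be degraded. Edem1 signals ran from 638 to 1359 in controls, with a median of 972, and from 1060.2 to 1636 in restricted mice, with a median of 1127. Its difference was 0.40 ± 0.18 (limma adjusted p = 0.189), and 0.47 in replicates 4 and 5 alone. Of its 5 restricted values, 4 lay inside the control range. A second Edem1 probe set gave -0.029 (limma adjusted p = 0.904), and -0.024 in replicates 4 and 5 alone. Edem2 had -0.16 (limma adjusted p = 0.482).

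Syvn1 encodes HRD1, the ubiquitin ligase of the pathway. Its 5 restricted values lay close together, between 1882 and 1978, inside a control range of 1349.8 to 2154, and the difference was 0.23 (limma adjusted p = 0.270). Sel1l, its adaptor, had 0.061 (limma adjusted p = 0.780), and Herpud1, a scaffold of the same complex, had -0.11 (limma adjusted p = 0.557). The derlins are membrane proteins through which substrates leave the ER. Their differences were 0.20 for Derl1 (limma adjusted p = 0.338), -0.0042 for Derl2 (limma adjusted p = 0.982) and -0.074 for Derl3 (limma adjusted p = 0.867). The other tested Derl1 probe sets gave -0.18, -0.13 and -0.28, and none of them passed. With the mean of its probe sets Derl1 stood at -0.099. A second Derl2 probe set gave -0.33 (limma adjusted p = 0.203).

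Both secreted stress-response proteins had a lower mean signal in restricted kidney, and neither passed the threshold. Manf encodes a factor that is released when ER calcium falls, and its signals were 1960.2, 1495, 1980.2, 2081 and 2419.8 in controls and 1221, 1525, 1444, 1943 and 2012 in restricted mice. The difference was -0.29 ± 0.15 (limma adjusted p = 0.241), with restricted replicates 1 and 3 below all controls. Creld2, a cysteine-rich protein of the same response, had the wider spread, with controls between 848 and 1837 and restricted mice between 733 and 1309. Its difference was -0.35 ± 0.20 (limma adjusted p = 0.295). For restricted replicates 4 and 5 against all controls Manf stood at 0.0097 and Creld2 at -0.0033, and in replicates 4 and 5 alone at -0.18 and -0.35.

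Of the 3 genes for translocation and glycosylation Ostc fell. Ostc encodes a subunit of the oligosaccharyltransferase complex, which attaches glycans to proteins as they enter the ER. Its signals were 1665, 1794, 1859, 1683 and 1964 in controls and 837, 959, 1104, 1494 and 1675 in restricted mice. The groups overlapped by 1 mouse, since restricted replicate 5 exceeded control replicate 1, and restricted replicates 1, 2 and 3 were far below the rest. The log2 difference was -0.61 ± 0.17 (limma adjusted p = 0.0472). It was -0.20 in replicates 4 and 5 alone (limma adjusted p = 0.522). The call was also lost without any 1 control or any 1 of restricted replicates 1, 2 and 3, at -0.64 to -0.49 and adjusted p from 0.0560 to 0.118.

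Sec61a1, the pore subunit of the translocation channel, had the largest positive difference of the 32 genes and missed the threshold. Its signals were 2797, 2398, 2587, 3403 and 3344 in controls and 5412, 5853, 4377, 3166 and 3314 in restricted mice. Restricted replicates 1, 2 and 3 exceeded every control, whereas 4 and 5 lay between the controls. The log2 difference was 0.58 ± 0.17 (limma adjusted p = 0.0579), and -0.058 in replicates 4 and 5 alone. It passed without restricted replicate 4 (0.69, limma adjusted p = 0.0284) and without restricted replicate 5 (0.67, limma adjusted p = 0.0279). Sec61b, another channel subunit, stood at -0.015 (limma adjusted p = 0.935).

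Several differences were smaller without the 3 restricted mice that had the high 3′ to 5′ ratios. In restricted replicates 4 and 5 against all controls, Calr stood at 0.30, Ppib at 0.21, Ostc at -0.18, Sec61a1 at 0.17 and Hyou1 at 0.21. No member passed the threshold there in limma's test, where 3 had an unadjusted p under 0.05. With the ratio as a covariate in the fit over all 10 mice, Dnajb9 stood at -0.39, Calr at 0.28, Ppib at 0.15, Ostc at -0.18 and Sec61a1 at 0.057. No member passed in that fit either, and 2 had an unadjusted p under 0.05. Of the 32 differences, 19 kept their sign with the covariate and 18 kept it in replicates 4 and 5 alone. Of the 14 that turned there, Sec61a1, Hyou1, Uggt1 and Pdia3 have their values above. Of the others, those now below 0 were Derl1 at -0.25, Xbp1 at -0.20, Sel1l at -0.19, Sdf2l1 at -0.072, Syvn1 at -0.061 and Hspa5 at -0.038. Those now above 0 were Sec61b at 0.12, Edem2 at 0.062, Dnajb11 at 0.059 and Pdia6 at 0.020. With all controls kept, Syvn1 at 0.25, Hspa5 at 0.19, Sdf2l1 at 0.072, Sel1l at 0.021 and Pdia3 at -0.13 did not turn. Hyou1 and Sec61a1 did not turn there either, and the rest of these genes did. The part of RNA integrity in these differences was not tested.

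**Figure D3:**
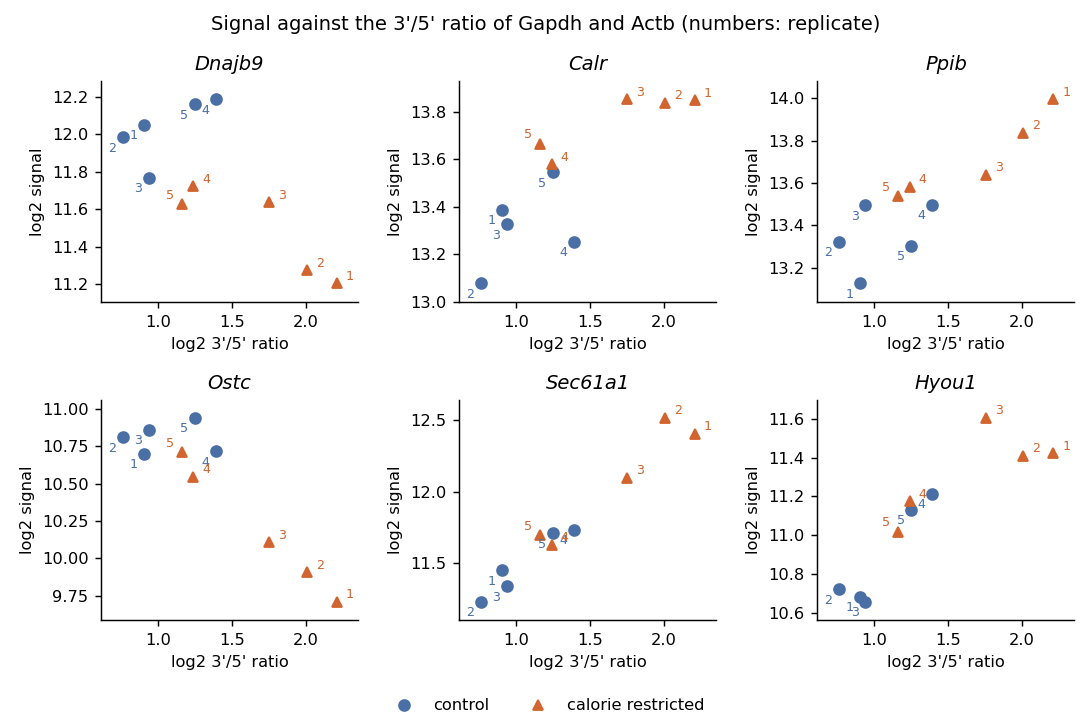
Log2 signal of 6 genes (vertical) against the log2 3′ to 5′ ratio of Gapdh and Actb (horizontal) in each of 10 mice, numbered by replicate (circles, control; triangles, calorie restricted). Restricted replicates 1, 2 and 3 lie right of all controls. For Sec61a1 and Hyou1 the signals of restricted replicates 4 and 5 sit among the controls, while for Dnajb9, Calr and Ppib they lie outside the controls.

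Single arrays also moved many members. Control replicate 5 held the highest control value in 16 of the 32 genes, where it held it in 24.1% of all genes tested. Control replicate 2 held the lowest in 12 genes, or 37.5%, against 21.7% of all genes. The median of the members, each set against its control mean, was 0.16 in control replicate 5 and -0.16 in control replicate 2 on the log2 scale. Restricted replicates lay between -0.083 and 0.055, so the controls spread more widely than the restricted mice.

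Different probe sets of a gene often disagreed. The 32 genes had 80 probe sets, of which 68 were tested and 7 passed the threshold. Of 36 tested probe sets beside the brightest one, from 20 genes, 17 (47.2%) had the sign of the brightest, against 59.1% for the other genes on the array. Calr was even, with all 3 probe sets called. Hyou1 had a dimmer probe set with a difference of 0.75 ± 0.18 (limma adjusted p = 0.0329), which kept 0.61 in replicates 4 and 5 alone, unlike the brightest. Hspa5 had 0.20, -0.34 and 0.19, and none of these passed. The 6 probe sets of Sec61a1 ran from -0.71 to 0.58, and the 5 of Dnajc3 from -0.97 to 0.30. Positions of the probes along the transcripts were not used here.

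**Figure D4:**
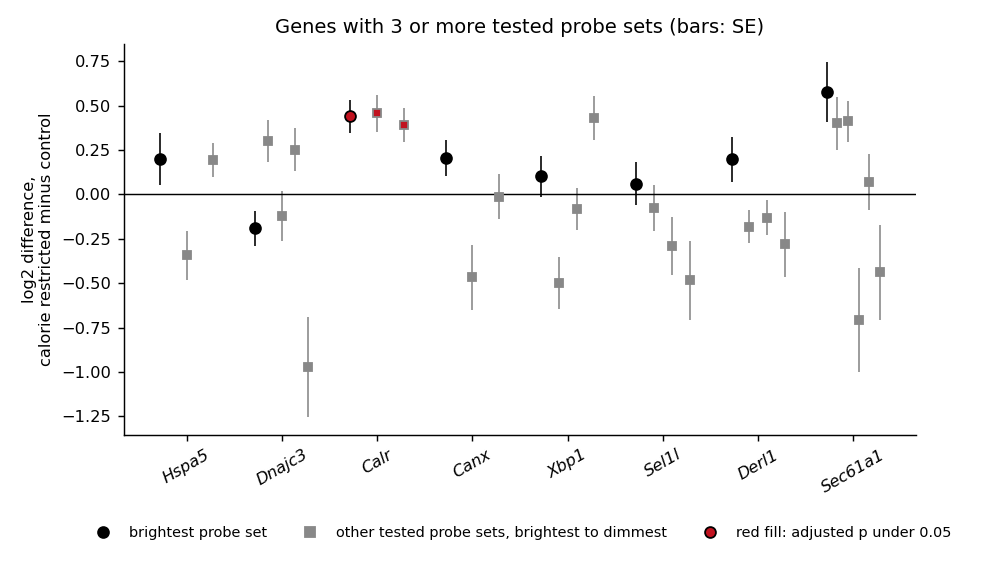
Log2 difference, calorie restricted minus control, with its SE, of every tested probe set of the 8 genes with 3 or more (black circles, brightest; grey squares, others from bright to dim; red fill, adjusted p under 0.05). The 3 Calr probe sets lie together between 0.39 and 0.46, and the other genes have probe sets on both sides of 0.

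Among the brightest genes, signal brightness went along with the direction at the authors' scaling. Of the 10 members with a mean log2 signal of 12 or more, 7 had a difference above 0 and their median was 0.15. Over all 1088 genes that bright, 71.8% lay above 0 and the median was 0.14. After quantile normalization the medians were 0.038 for the 10 members and 0.015 for the 1088 genes. For Calr the difference went from 0.44 to 0.28 (limma adjusted p = 0.0922) and for Ppib from 0.37 to 0.20 (limma adjusted p = 0.219). Dnajb9 stayed at -0.55 (limma adjusted p = 0.0357) and was the only member past the threshold after that normalization.

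Of 107 further ER genes tested, 5 rose and 2 fell, which is 6.54% beside 6.10% of all genes. Differences of 49 of them (45.8%) lay above 0, beside 49.2% of all genes. The 7 calls became 1 without control replicate 2, 3 or 4 or restricted replicate 1 or 3, and 2 without control replicate 5. They became 0 without restricted replicate 2, 12 without restricted replicate 4 and 18 without restricted replicate 5. Calls over all probe sets also moved in these fits, as given above. Among 17 genes of glycosylation and glycan trimming 14 lay above 0 (13 after quantile normalization), with a median of 0.21, and 2 passed. These were Rpn1 at 0.41 (limma adjusted p = 0.0376) and Krtcap2 at 0.47 (limma adjusted p = 0.0490), both subunits of the oligosaccharyltransferase complex to which Ostc belongs. In replicates 4 and 5 alone they stood at 0.12 and 0.068.

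Among 19 other chaperones and proline isomerases, Fkbp9 rose by 0.45 (limma adjusted p = 0.0379) and Lrpap1 by 0.42 (limma adjusted p = 0.0299), while Ppic had a difference of -0.68 ± 0.13 (limma adjusted p = 0.0185). In replicates 4 and 5 alone Fkbp9 stood at 0.15, Lrpap1 at 0.38 and Ppic at -0.44, and after quantile normalization Fkbp9 (limma adjusted p = 0.0566) and Lrpap1 (0.19, limma adjusted p = 0.234) did not pass. Fkbp9 and Ppic are proline isomerases, and Lrpap1 is the chaperone of megalin and related receptors. Ppic, a relative of Ppib, ranged from 3437 to 4477 in controls and from 1963 to 3193 in restricted mice, without overlap. It was the only one of the 107 genes past the threshold after quantile normalization, at -0.68 (limma adjusted p = 0.0267).

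Among 15 genes of oxidative folding 1 fell, Txndc5, a disulfide isomerase, at -0.46 ± 0.13 (limma adjusted p = 0.0459), and its groups did not overlap. Replicates 4 and 5 alone gave -0.44. Of 16 genes of stress signalling, Tmbim6, which encodes the membrane protein BAX inhibitor 1, rose by 0.29 (limma adjusted p = 0.0360), a value of 0.039 after quantile normalization. The 21 genes of translocation gave no call in limma's test, with 4 at an unadjusted p under 0.05 and 3 above 0 (6 after quantile normalization). The smallest p-values there belonged to Spcs2, a signal peptidase subunit, at -0.47 (limma adjusted p = 0.0537) and Ssr4, of the translocon-associated complex, at -0.36 (limma adjusted p = 0.0993). The 19 genes of degradation gave no call either, with 7 at an unadjusted p under 0.05. Aup1 had 0.33 (limma adjusted p = 0.0522) and Os9, a lectin for misfolded glycoproteins, 0.37 (limma adjusted p = 0.0606).

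**Figure D5:**
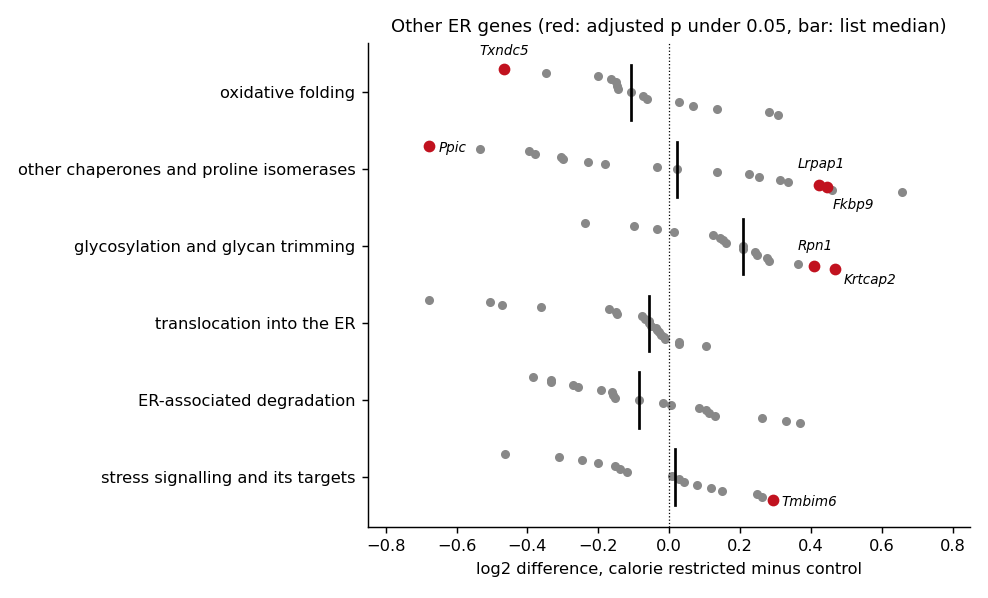
Log2 difference, calorie restricted minus control, of 107 further ER genes in 6 lists, each point 1 gene, with the median of each list as a bar and genes past the threshold in red and named. Most glycosylation genes lie right of 0 (median 0.21) and most translocation genes just left of it (median -0.058).

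Markers of several kidney cell types were called, and their part in the values above was not tested. Over all genes tested, 3.08% were called higher and 3.02% lower. The summed signal of 14 proximal tubule markers was at least 174470 and at most 213333 in controls, and 251882 to 293253 in restricted mice, with 9 of 14 called higher and a median difference of 0.38. After quantile normalization 2 of the 14 were called higher and the median was 0.088, and Slc34a1 went from 0.39 to 0.099. The summed signal of 11 B and plasma cell markers, a cell type rich in ER, was 28274 to 51165 in controls and 10607 to 28079 in restricted mice. Of 8 tested, 2 were called lower, and Jchain stood at -1.43 (limma adjusted p = 0.0996). Of 8 macrophage markers 5 were called lower (3 after quantile normalization), with sums of 16950.0 to 27711 and 12060.4 to 18664. Lower calls numbered 2 of 7 for fibroblasts and 2 of 5 for podocytes, and 1 of 5 collecting duct markers was called higher. No marker of the thick limb and distal tubule (of 6) or of endothelium (of 6) was called by limma. Of these, 2 and 3 had an unadjusted p under 0.05, beside 26.4% of all genes.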

How the data were processed

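Total RNA of each kidney was extracted with Trizol and labelled as biotinylated cRNA, per the labels' protocols. Per the submitters' processing notes, the authors used MAS5 and Affymetrix Expression Console, whose versions the notes leave out. Each deposited value is a linear intensity, the signal of 1 probe set on 1 array. MAS5 subtracts mismatch signal and scales each array to a common trimmed mean, which can leave differences that change with brightness. The table holds 45101 probe sets, 64 of them controls that were left out, and 34958 have exactly 1 gene symbol in the platform annotation, which can be old. All 32 members matched RefSeq genes by gene ID, with equal symbols.

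Signals under 1 were set to 1 and log2 was taken. Probe sets with a mean log2 signal at or above the median of 6.81 were tested (22519) in R 4.3.3 with limma 3.58.1 (lmFit, eBayes with an intensity trend, 2-sided) without covariates, with Benjamini-Hochberg adjustment over all of them. The script was tested on simulated data. Each array is 1 mouse per the labels, so p-values set diet differences against the spread between arrays. In that spread, mouse, RNA quality and labelling cannot be told apart. The 3′ to 5′ ratio was tested with an exact permutation test.

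The members, lists and settings were chosen with earlier results of these data known. Every member is accounted for. Members past the threshold or without overlap, and some others described for contrast, have every array's value. In each further list up to 4 genes past the threshold are named, or the 2 with the smallest p. Replicates 4 and 5 and the covariate combined with quantile normalization, and the settings other than quantile normalization for the further ER genes, were added after seeing the data. No column of per-sample values was left unmapped.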

Additional observations from a re-analysis of the deposited data

How the results depend on the processing

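The 4 members past the threshold became 1 after quantile normalization, and 0 with no filter on low signal, with eBayes without trend, with the ratio as covariate (also with quantile normalization), in replicates 4 and 5 alone (also with quantile normalization) and in restricted replicates 4 and 5 against all controls. In limma's fits with 0 calls, 2 to 11 members had an unadjusted p under 0.05. The fit with 4 calls had 10 such members, beside 26.4% of all genes. The shares of all genes in the fits with 0 calls are not given here. Leaving out 1 mouse gave 0 to 7 members past the threshold. It was 0 without control replicate 2 or 4 or restricted replicate 1, 2 or 3. Leaving out control replicate 5 gave 1, and control replicate 1 or 3 gave 2. Leaving out restricted replicate 4 gave 6 and restricted replicate 5 gave 7. Calls over all probe sets ran from 125 to 2481 in these fits. A stricter filter, median centring, log2(signal + 50), a robust fit, array weights and averaging all probe sets per gene gave 3 to 6. The replicate block gave 0 members and 0 further ER genes. The labels name no pairing by number, and same-numbered mice correlated at -0.14 to -0.09 after group means were removed. This cannot show whether same-numbered mice were handled together. The 3′ to 5′ ratio changed with number oppositely in the diets, and its part in these correlations was not tested. The block, which adds terms to the fit, took the calls over all probe sets from 1371 to 127.

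The median of the members, -0.0094, moved by more than the SD of the per-array medians within groups (0.089) with median centring, to -0.11, a setting that put the median of all genes at -0.10. It was -0.083 with all probe sets averaged, -0.060 in replicates 4 and 5 alone (-0.065 with quantile normalization) and 0.021 for restricted replicates 4 and 5 against all controls. It ran from -0.04 to 0.05 when 1 mouse was left out. Hyou1 reversed to -0.077 in replicates 4 and 5 alone and to -0.065 with quantile normalization added. Sec61a1 reversed to -0.058 and -0.089 in these settings, and Ppib to -0.038 in the latter and to -0.0087 with the covariate and quantile normalization. Over 25 alternatives each, limma's adjusted p ran from 0.0192 to 0.362 for Dnajb9 (11 past the threshold), 0.0145 to 0.889 for Calr (11), 0.0290 to 0.984 for Ppib (6) and 0.0136 to 0.726 for Ostc (7). Dnajb9, Calr and Ostc reversed in none of them. With the mean of all probe sets, Ppib stood at 0.22, Ostc at -0.10 and Hyou1 at 0.80 (limma adjusted p = 0.0333). That mean includes probe sets below the filter. For Hyou1 such a probe set had signals from 7.2 to 95 and an unfiltered difference of 1.21 (limma adjusted p = 0.328). For Ostc such a probe set had signals from 36 to 99 and 0.40 (limma adjusted p = 0.602).

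The 7 further ER genes past the threshold became 1 with quantile normalization, no filter, eBayes without trend or replicates 4 and 5 alone (also with quantile normalization), 0 with the covariate (also with quantile normalization) or restricted replicates 4 and 5 against all controls, 12 with the stricter filter and 16 with array weights. Without 1 mouse they numbered 0 to 18, while calls over all probe sets ran from 125 to 2481. The difference in the 3′ to 5′ ratio ran from 0.49 to 0.75 without 1 mouse, with exact permutation p from 0.0397 to 0.0794. The causes of these changes were not tested.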

Other observations

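Genes further down the PERK branch of the response, which were counted above only with their list, gave no call. Atf4, the transcription factor made when eIF2α is phosphorylated, had signals of 2949.6 to 3855 in controls and 2123 to 3483 in restricted mice, with a log2 difference of -0.31 ± 0.14 (limma adjusted p = 0.163). Ddit3, the gene of CHOP, which acts in prolonged ER stress, ran from 466 to 649 in controls and from 421 to 699 in restricted mice, with -0.15 ± 0.16 (limma adjusted p = 0.576). Both were chosen after their values were seen. In replicates 4 and 5 alone they stood at -0.12 and 0.059.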
